A study of Mus musculus with 8 samples.

Results

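The genes described here, chosen with earlier results of these data known, are 53 chromatin modifiers and remodellers. They were picked by name for what their proteins do. Probesets assigned to exactly 1 gene measured 52 of them, with 88 of the 21789 probesets tested over 19938 genes. Suv39h1 was not analysed here. Expression was measured on 8 microarrays of mouse progenitors cultured for 4 days on OP9-DL4, a stromal line that presents the Notch ligand DL4, where the medium held 5 ng/ml Flt3 ligand and another cytokine. All cells began as lymphoid primed multipotent progenitors of bone marrow, a stage that can still give lymphoid and myeloid cells, and all were sorted as CD45.2-positive. The groups were Tcf7-/- (Tcf1-deficient) lineage-negative cells of 3 mice, Tcf7+/+ (wildtype) lineage-negative cells of 3 mice and wildtype T lineage cells in 2 replicates. Lineage-negative meant Mac1-, Gr1-, Thy1- and CD25-, and T lineage meant Thy1+ and CD25+. The labels give a mixed genetic background for the line, and no T lineage cells arose from deficient progenitors, so a deficient T lineage group is not part of the design. The labels do not say whether the T lineage replicates came from separate mice, so p-values against them measure the spread between these samples.

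Chromatin enzymes set which parts of the genome a cell can read. DNA methyltransferases add methyl groups to cytosines of CpG pairs and TET enzymes oxidise them towards removal. Polycomb complexes place repressive histone marks, deacetylases and acetyltransferases remove and add acetyl groups on histone tails, and SWI/SNF and CHD proteins use ATP to move nucleosomes. In early T cell development such enzymes accompany the closing of stem and myeloid genes and the opening of T lineage genes.

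Values are the authors' log2 expression per probeset, and a difference is a log2 difference with its standard error (SE). Where a gene had several probesets the brightest stands for it, and no probeset's level is set against that of another. A call is an adjusted p under 0.05 in limma, adjusted over all 21789 probesets. All 7 T lineage markers on the list rose in T lineage against wildtype lineage-negative cells, and the array means of that list were 9.24 to 9.89 against 6.52 to 6.71. Thy1 and Il2ra (CD25) are themselves the sort markers, so their rises were set by the gates and also lift these means. The others on the list differed by 0.51 (Bcl11b) to 6.05 (Cd3g). In deficient lineage-negative cells the array means of the list were 6.48 to 6.56. Il2ra was called lower there than in wildtype lineage-negative cells (-1.02, limma adjusted p = 0.0283). Dendritic and MHC class II markers fell in 7 of 7 cases, with array means of 5.99 to 6.20 in T lineage, 10.31 to 10.56 in wildtype and 10.08 to 10.34 in deficient lineage-negative cells. Granulocyte and monocyte markers fell in 6 of 7 cases, with array means of 6.87 to 7.18, 9.36 to 10.15 and 9.41 to 9.48 in the same order. The exception was Mpo, a granule enzyme, at 10.69 and 11.54 in T lineage against 11.51 to 11.94 in wildtype cells (-0.54, limma adjusted p = 0.183). Array means of the B lineage markers (3 measured) lay between 5.49 and 5.98 and of the stromal markers between 6.52 and 6.77, with no call in T lineage against wildtype lineage-negative cells. Of the stromal markers Sparc was called lower in T lineage than in deficient cells (-0.54, limma adjusted p = 0.0021), and it was higher in all 3 deficient arrays than in wildtype by 0.54, not called (limma adjusted p = 0.0997). The levels of these dendritic and myeloid lists differed between the groups, and their part in the differences below was not tested. In sorted bulk samples, fewer cells of a type and less RNA per cell cannot be told apart. The genotype labels could not be checked against the Tcf7 transcript, which was not analysed here.

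T lineage cells differed from wildtype lineage-negative cells in several enzymes of DNA methylation. The methyltransferases Dnmt3b and Dnmt3a and the methylation cofactor Uhrf1 rose, and the oxidases Tet1, Tet2 and Tet3 fell. Tet1 was 3.99-fold, Hdac9 3.26-fold and Tet2 3.13-fold lower, and Dnmt3b was 2.62-fold higher. Of the 52 genes 6 rose, where 7.74% of all tested genes rose, and 9 fell, where 10.5% of all tested genes fell. The rises numbered 13 after a second quantile normalization of the values, 10 without the dimmest probesets and 3 without T lineage array 2. Over all probesets 1670 rose in the main fit and 2233 after the second quantile normalization. Such counts for the other settings are not given here. In all 28.8% of the 52 genes passed in the main fit against 18.2% of all genes. All genes include dim ones, and these shares were not matched for expression level. The median difference of the 52 genes was 0.07 against 0.04 over all genes. At 2-fold or more 1 gene rose (0.667% of all genes) and 3 fell (2.38% of all genes). The arrays of the groups did not overlap for 24 genes that were higher (28.3% of all genes) and 15 that were lower (19.5%).

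For some of the largest of these differences, the RefSeq sequence (GRCm38.p6) just before the annotated start of the gene is shown. It runs 5′ to 3′ on the gene's strand, with CpG pairs in capitals because they are the substrate of the enzymes concerned. Other called genes, Tet2 among them, are not shown. The coordinates are chr10:62887470-62887574 (minus strand) for Tet1, chr12:34917096-34917345 (minus) for Hdac9, chr2:153649199-153649410 (plus) for Dnmt3b, chr17:56303087-56303336 (plus) for Uhrf1 and chr11:100712486-100712717 (minus) for Kat2a.
Tet1: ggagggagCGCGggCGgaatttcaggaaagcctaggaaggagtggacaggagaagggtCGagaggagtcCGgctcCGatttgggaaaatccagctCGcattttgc
Hdac9: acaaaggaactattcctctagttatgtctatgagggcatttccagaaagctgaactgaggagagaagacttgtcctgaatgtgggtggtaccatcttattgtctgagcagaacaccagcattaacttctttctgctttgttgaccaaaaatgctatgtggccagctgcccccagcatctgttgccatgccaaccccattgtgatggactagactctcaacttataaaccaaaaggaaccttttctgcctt
Dnmt3b: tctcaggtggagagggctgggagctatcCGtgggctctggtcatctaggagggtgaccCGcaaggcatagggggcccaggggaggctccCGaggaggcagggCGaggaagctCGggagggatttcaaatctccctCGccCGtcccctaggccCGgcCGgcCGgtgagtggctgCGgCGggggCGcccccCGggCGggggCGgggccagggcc
Uhrf1: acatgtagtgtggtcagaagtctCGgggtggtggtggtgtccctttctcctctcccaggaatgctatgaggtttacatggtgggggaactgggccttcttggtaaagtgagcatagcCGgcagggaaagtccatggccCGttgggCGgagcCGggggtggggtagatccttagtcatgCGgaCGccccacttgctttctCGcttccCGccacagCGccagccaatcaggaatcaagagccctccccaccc
Kat2a: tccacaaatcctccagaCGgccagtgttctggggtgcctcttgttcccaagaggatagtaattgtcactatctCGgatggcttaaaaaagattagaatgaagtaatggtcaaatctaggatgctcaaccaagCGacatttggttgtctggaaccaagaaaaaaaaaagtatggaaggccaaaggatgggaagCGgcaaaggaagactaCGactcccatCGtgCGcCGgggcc

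The Hdac9 stretch of 250 bases held 0 CpG pairs. The 105 bases of Tet1, which overlap the predicted gene Gm51805, held 7, the 212 of Dnmt3b 16, the 250 of Uhrf1 10 and the 232 of Kat2a 8. Hdac9 and Uhrf1 each have a second annotated start, not shown. RefSeq promoter windows, from 250 bases before to 50 after a start, were matched for 45 of the 53 genes, in 63 windows. Their median ratio of observed to expected CpG pairs was 0.86, against 0.38 over the 32851 windows of the table. Words of the E2F type (TTTGGCGC, TTTCCCGC and TTTCGCGC, on both strands, where a site can match on each strand) stood in 9.52% of the 63 windows and 1.84% of all windows. The 6 windows were of Arid1a, Ezh2, Dnmt1, Suz12, Smarcd1 and Uhrf1 (its second start), of which Uhrf1 was called. Words of the TCF/LEF type (CTTTGAA and CTTTGAT, on both strands) stood in 4.76% and 8.65%. The median share of G and C bases was 67.3% in the 63 windows and 52.7% over all windows. Each E2F word holds a CpG pair, and the word shares were not matched for base composition. A match describes the letters of a window and is no evidence of binding.

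**Figure D1:**
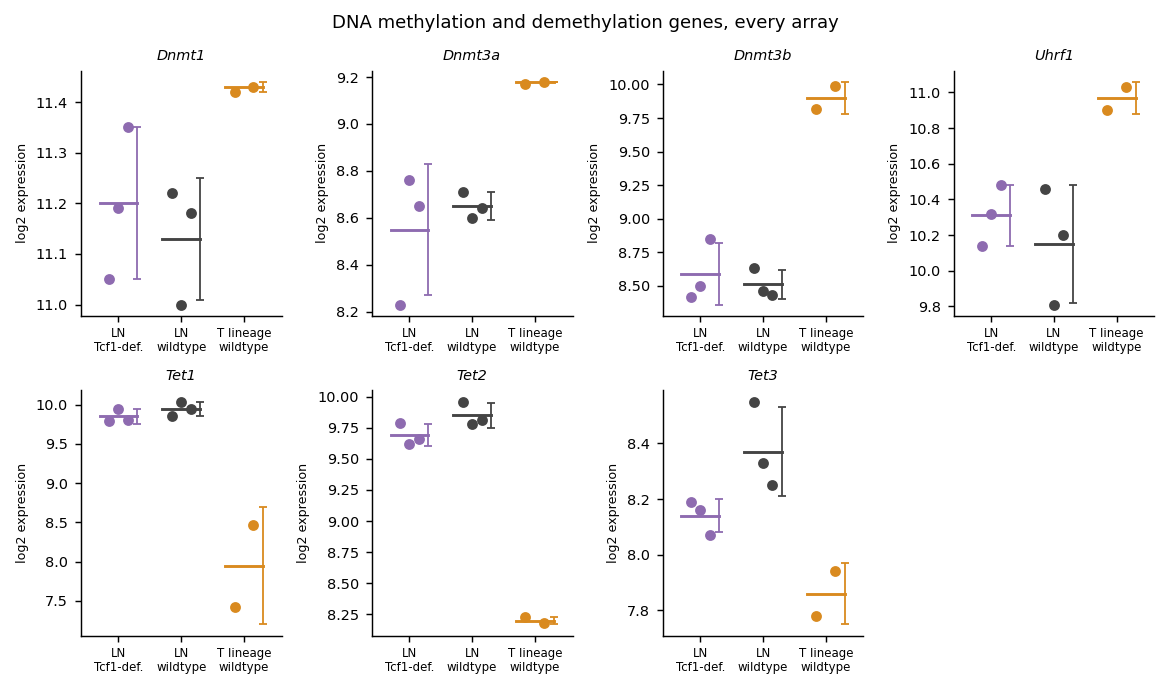
Log2 expression of the DNA methylation and demethylation genes on every array (points), with the group mean (line) and SD (bar), in Tcf1-deficient lineage-negative (LN, n = 3), wildtype LN (n = 3) and wildtype T lineage cells (n = 2); each panel has its own axis, which does not start at 0. T lineage arrays lie above all LN arrays for Dnmt1, Dnmt3a, Dnmt3b and Uhrf1 and below all of them for Tet1, Tet2 and Tet3.

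Among the genes that lay down DNA methylation, Dnmt3b, a de novo methyltransferase, read 9.82 and 9.99 in T lineage, 8.63, 8.46 and 8.43 in wildtype and 8.42, 8.50 and 8.85 in deficient lineage-negative cells. Both T lineage arrays lay above all 6 lineage-negative arrays. The rise over wildtype was 1.39 (SE 0.13, limma adjusted p = 2.69e-05) and held under all 17 alternatives at the same threshold, between 1.31 and 1.48. Dnmt3a, the other de novo methyltransferase, read 9.17 and 9.18 in T lineage, 8.71, 8.60 and 8.64 in wildtype and 8.23, 8.76 and 8.65 in deficient cells. Both T lineage arrays of Dnmt3a lay above all 6 lineage-negative arrays, while deficient and wildtype arrays overlapped. Deficient array 1 lay well below the other lineage-negative arrays. Its rise of 0.53 (SE 0.13, limma adjusted p = 0.0189) was a smaller one and lost the call without wildtype array 2 (0.0594) or 3 (0.052), without T lineage array 1 (0.0831) or 2 (0.0845) and with all probesets in the fit (0.0633).

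Uhrf1, which brings Dnmt1 to newly copied DNA, read 10.90 and 11.03 in T lineage, 10.46, 9.81 and 10.20 in wildtype and 10.14, 10.32 and 10.48 in deficient cells. The lineage-negative arrays were widely spread but stayed below both T lineage arrays. The rise was 0.81 (SE 0.16, limma adjusted p = 0.00571). Dnmt1, the maintenance methyltransferase, read 11.42 and 11.43 in T lineage, 11.22, 11.00 and 11.18 in wildtype and 11.05, 11.19 and 11.35 in deficient cells. Its difference of 0.29 (SE 0.10) did not pass (limma adjusted p = 0.0762), with a 95% interval of 0.07 to 0.52. DNA replication genes, with which Uhrf1 and Dnmt1 act, numbered 30, of which 7 rose (7.74% of all genes rose) and 0 fell, with array means of 9.99 to 10.05 in T lineage and 9.78 to 9.87 in wildtype cells. Of 21 mitosis genes 0 rose and 4 fell (10.5% of all genes fell), with array means of 10.23 to 10.24 and 10.25 to 10.33. The part of cell cycling in the rise of Uhrf1 was not tested.

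The 3 TET genes, whose products oxidise methylated cytosine, all fell, where 10.5% of all genes fell. Tet1 read 7.42 and 8.47 in T lineage, 9.85, 10.04 and 9.94 in wildtype and 9.79, 9.95 and 9.81 in deficient cells. The T lineage arrays stood apart from each other by more than any group of lineage-negative arrays spread, and both lay below all of those. The fall was 2.00 on the log2 scale (-2.00, SE 0.23, limma adjusted p = 0.00013), and the difference was -1.47 without T lineage array 1 and -2.52 without array 2, called in both cases. The 3 probesets of Tet1 gave differences of -2.06 to -1.94, and each was called.

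Tet2 read 8.23 and 8.18 in T lineage, 9.96, 9.78 and 9.81 in wildtype and 9.79, 9.62 and 9.66 in deficient cells. The T lineage arrays agreed closely and lay far below the rest, with a difference of -1.65 (SE 0.09, limma adjusted p = 5.23e-07), between -1.68 and -1.58 over the alternatives. Tet3 read 7.78 and 7.94 in T lineage, 8.55, 8.33 and 8.25 in wildtype and 8.19, 8.16 and 8.07 in deficient cells. Its difference was -0.52 (SE 0.10, limma adjusted p = 0.00463), and the call was lost without T lineage array 1 (-0.44, limma adjusted p = 0.0507). Its second, dimmer probeset gave -0.23 and was not called.

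**Figure D2:**
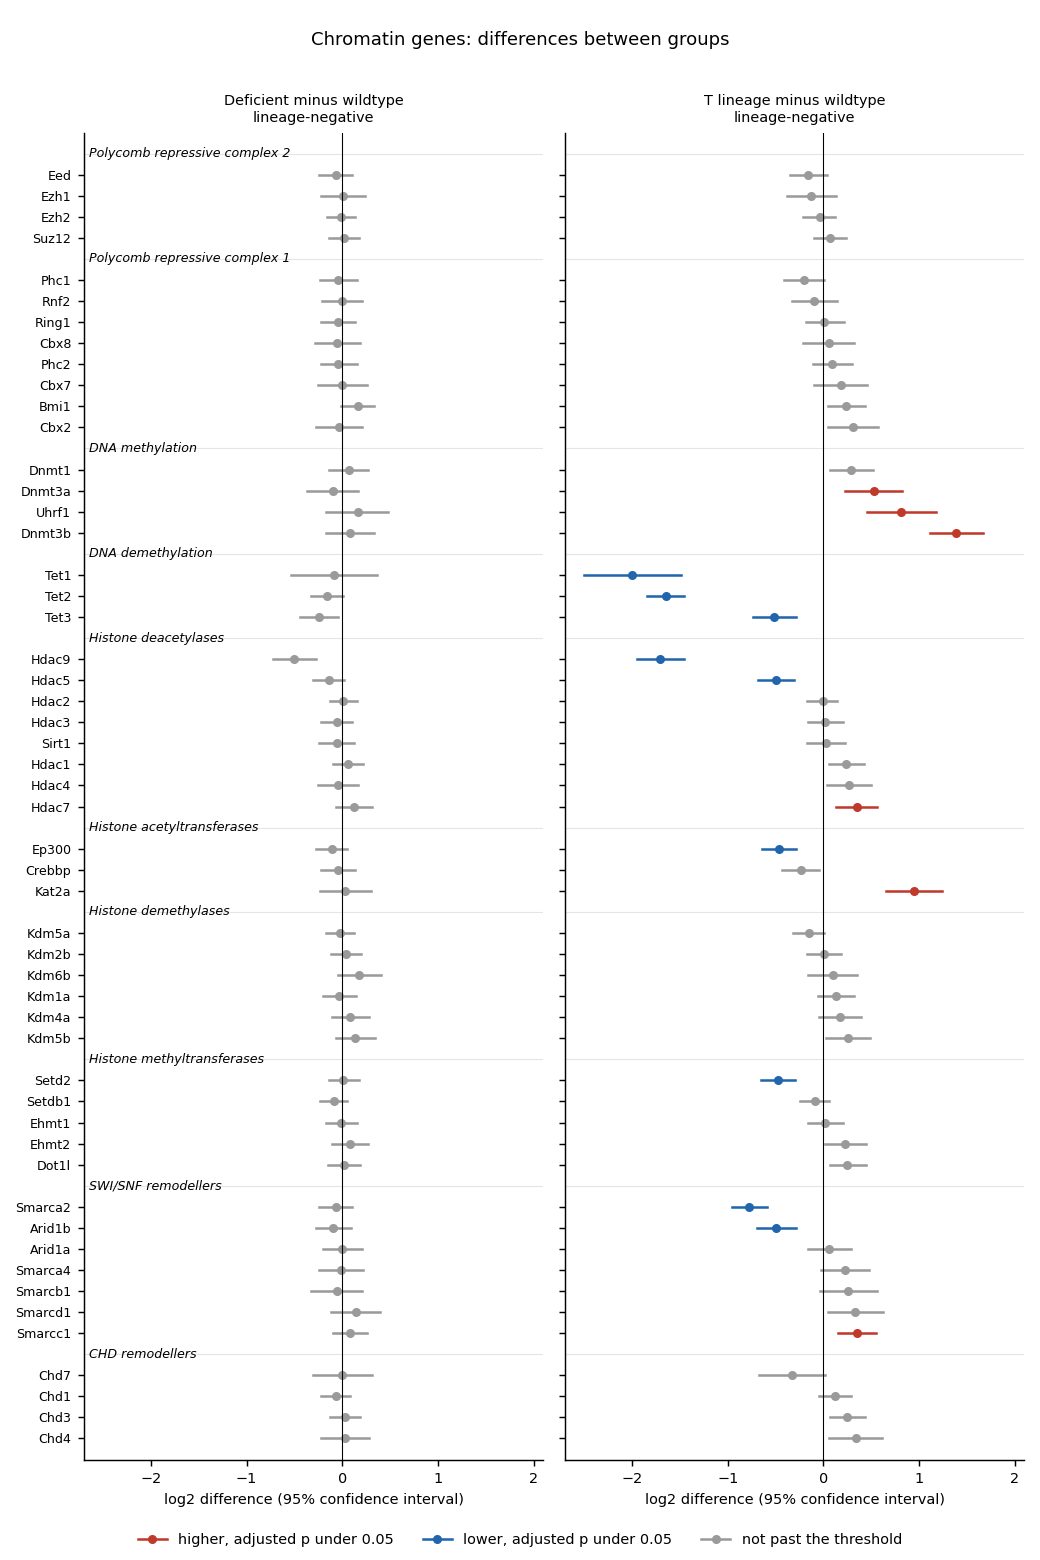
Log2 differences (points) with 95% confidence intervals (lines) of the 52 measured genes, grouped by role, for Tcf1-deficient minus wildtype lineage-negative cells (left) and T lineage minus wildtype lineage-negative cells (right). Coloured genes passed an adjusted p under 0.05 in limma, which were 0 of 52 on the left and 15 of 52 on the right, where Tet1, Hdac9 and Tet2 lie furthest left and Dnmt3b furthest right.

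Of 8 histone deacetylases 1 was higher (7.74% of all genes rose), 2 were lower (10.5% of all genes fell) and 5 were not called. Hdac9, a class IIa deacetylase that binds MEF2 factors, read 7.62 and 7.29 in T lineage, 9.13, 9.18 and 9.18 in wildtype and 8.80, 8.51 and 8.69 in deficient cells. No array of a group overlapped another group. The difference from wildtype was -1.71 (SE 0.11, limma adjusted p = 2.54e-06), between -1.87 and -1.54 over the alternatives. Hdac5, of the same class, read 7.31 and 7.38 in T lineage, 7.95, 7.76 and 7.83 in wildtype and 7.64, 7.72 and 7.76 in deficient cells. It fell, with a difference of -0.50 (SE 0.08, limma adjusted p = 0.00172).

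Hdac7, a class IIa deacetylase known from thymocyte selection, was the member of the class that rose. It read 7.75 and 7.61 in T lineage, 7.34, 7.48 and 7.20 in wildtype and 7.38, 7.53 and 7.48 in deficient cells, a difference of 0.35 (SE 0.10, limma adjusted p = 0.0309). The call was lost without wildtype array 1 (0.0734) or 3 (0.105), without T lineage array 1 (0.212) or 2 (0.0533) and with all probesets in the fit (0.0727). Hdac4, the fourth of this class here, differed by 0.27 on its brightest probeset (limma adjusted p = 0.111), while its dimmer probeset passed at 0.43. The class I enzymes Hdac2 (-0.01) and Hdac3 (0.02) and the NAD-dependent Sirt1 (0.03) had adjusted p of 0.879 to 0.929. Hdac1 differed by 0.24 (limma adjusted p = 0.0677), and its second probeset passed at 0.27.

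Of the 3 acetyltransferases Kat2a rose (7.74% of all genes rose) and Ep300 fell (10.5% of all genes fell). Kat2a (GCN5), the catalytic subunit of the SAGA coactivator, read 9.68 and 9.70 in T lineage, 8.86, 8.55 and 8.83 in wildtype and 8.51, 8.91 and 8.91 in deficient cells. It was 1.93-fold higher than in wildtype, with a difference of 0.95 (SE 0.13, limma adjusted p = 0.000596), and held under all 17 alternatives. Ep300, the coactivator p300, read 9.99 and 9.93 in T lineage, 10.49, 10.40 and 10.41 in wildtype and 10.22, 10.36 and 10.38 in deficient cells. Its difference of -0.47 (SE 0.08, limma adjusted p = 0.00193) was called, while its close relative Crebbp, at -0.24, was not (limma adjusted p = 0.0887).

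**Figure D3:**
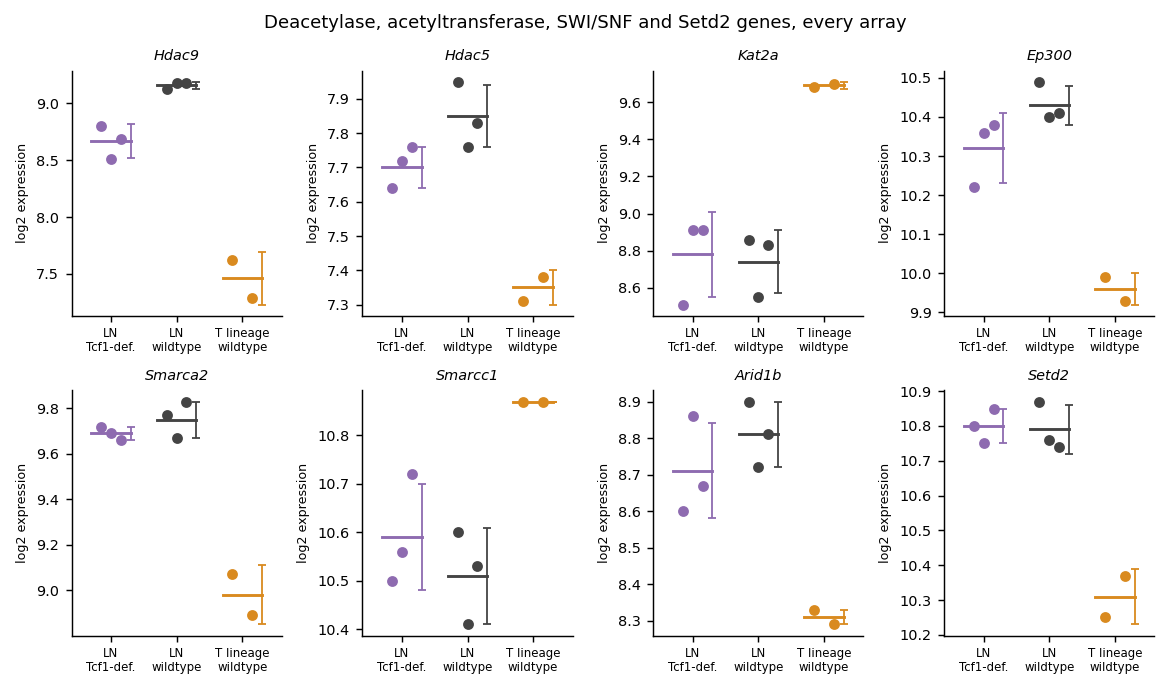
Log2 expression of 8 called genes outside DNA methylation on every array (points), with the group mean (line) and SD (bar), in Tcf1-deficient LN (n = 3), wildtype LN (n = 3) and wildtype T lineage cells (n = 2); each panel has its own axis, which does not start at 0. For Hdac9 the deficient arrays (8.51 to 8.80) all lie between the wildtype LN arrays (9.13 to 9.18) and the T lineage arrays (7.29 and 7.62). For Ep300 the deficient arrays (10.22 to 10.38) reach almost to the wildtype LN arrays (10.40 to 10.49). The genotype differences, -0.50 for Hdac9 and -0.11 for Ep300, were not called (limma adjusted p = 0.365 and 0.999).

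Of 7 SWI/SNF genes 1 rose (7.74% of all genes rose) and 2 fell (10.5% of all genes fell). Smarca2 (BRM), a catalytic ATPase of the complex, read 9.07 and 8.89 in T lineage, 9.77, 9.67 and 9.83 in wildtype and 9.72, 9.69 and 9.66 in deficient cells. The difference was -0.78 (SE 0.08, limma adjusted p = 0.000102) and held under all 17 alternatives. Smarca4 (BRG1), the alternative ATPase, read 9.96 and 10.05 in T lineage, 9.82, 9.62 and 9.90 in wildtype and 9.57, 9.83 and 9.91 in deficient cells. Its difference of 0.23 was not called (limma adjusted p = 0.223), with a 95% interval of -0.03 to 0.48. The difference between these paralogues was not tested.

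Arid1b, a DNA-binding subunit, read 8.33 and 8.29 in T lineage, 8.90, 8.72 and 8.81 in wildtype and 8.60, 8.86 and 8.67 in deficient cells. It fell (-0.50, SE 0.09, limma adjusted p = 0.00385), while its alternative Arid1a differed by 0.06 (limma adjusted p = 0.733). Smarcc1, a core scaffold subunit, rose by 0.35 (SE 0.09, limma adjusted p = 0.0196), a call lost without wildtype array 2 (0.0693) or T lineage array 1 (0.0874) or 2 (0.0899). Smarcb1 (0.26) and Smarcd1 (0.33) were not called.

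Among histone methyltransferases 1 of 5 fell, where 10.5% of all genes fell. Setd2, which trimethylates H3K36 in transcribed genes, read 10.25 and 10.37 in T lineage, 10.87, 10.76 and 10.74 in wildtype and 10.80, 10.75 and 10.85 in deficient cells. Both of its probesets were called, with -0.48 (SE 0.08, limma adjusted p = 0.00179) on the brighter and -0.44 on the other. Dot1l, the H3K79 methyltransferase, differed by 0.25 (limma adjusted p = 0.0611), and the H3K9 enzymes Ehmt1 (0.02), Ehmt2 (0.23) and Setdb1 (-0.09) were not called either.

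Polycomb genes passed in 0 of 12 cases in T lineage against wildtype lineage-negative cells with limma, where 18.2% of all genes passed. Of them 2 had an unadjusted p under 0.05 (Bmi1 and Cbx2), which 29.6% of all genes reached. Ezh2, the main H3K27 methyltransferase, read 11.84 and 11.76 in T lineage, 11.88, 11.84 and 11.81 in wildtype and 11.78, 11.87 and 11.83 in deficient cells. All 3 groups overlapped, and the 95% interval of the difference was -0.21 to 0.12. Ezh1, its paralogue, read 8.34 and 8.17 in T lineage, 8.50, 8.18 and 8.46 in wildtype and 8.45, 8.24 and 8.48 in deficient cells, again with overlap and an interval of -0.38 to 0.13. Eed (-0.16) and Suz12 (0.07), the core partners, were not called.

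In the second Polycomb complex, Bmi1, a subunit known from stem cell self-renewal, read 9.28 and 9.50 in T lineage, 9.19, 9.11 and 9.13 in wildtype and 9.31, 9.25 and 9.35 in deficient cells. It stood higher in every T lineage array than in wildtype, but its difference of 0.24 was not called (limma adjusted p = 0.0789). Cbx7, a reader of the Polycomb mark, read 7.16 and 6.99 in T lineage, 6.78, 6.94 and 6.98 in wildtype and 6.69, 7.15 and 6.85 in deficient cells, and the difference of 0.18 did not pass. The other members differed by -0.20 (Phc1) to 0.31 (Cbx2). Over all 12 Polycomb genes the 95% intervals ran from -0.41 to 0.57, so a 2-fold change of any of them lay outside its interval.

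Histone demethylases passed in 0 of 6 cases with limma, where 18.2% of all genes passed. Of them 1 (Kdm5b) had an unadjusted p under 0.05, which 29.6% of all genes reached. Kdm5b, an H3K4 demethylase, read 9.38 and 9.23 in T lineage, 9.13, 8.92 and 9.08 in wildtype and 9.0, 9.27 and 9.25 in deficient cells, a difference of 0.26 (limma adjusted p = 0.116). Kdm6b, an H3K27 demethylase, read 7.49 and 7.41, then 7.51, 7.11 and 7.45, then 7.48, 7.50 and 7.59 in the same order, and the groups overlapped. The other 4 differed by -0.15 (Kdm5a) to 0.17 (Kdm4a).

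CHD remodellers passed in 0 of 4 cases by their brightest probesets with limma, where 18.2% of all genes passed. Of them 2 (Chd3 and Chd4) had an unadjusted p under 0.05, which 29.6% of all genes reached. Chd4, the ATPase of the NuRD complex, differed by 0.34 (limma adjusted p = 0.0959) and its relative Chd3 by 0.25 (0.0584). Chd7 read 8.23 and 8.03 in T lineage, 8.27, 8.34 and 8.76 in wildtype and 8.29, 8.40 and 8.68 in deficient cells, a difference of -0.33 (limma adjusted p = 0.194). The array carries 30 probesets for Chd7, and they did not give a single answer. Of these 5 were called lower and 0 higher, 25 had a negative sign, and the differences ran from -1.12 to 0.18 with a median of -0.20. Of all tested probesets 10.4% were called lower. The probesets share the samples and are not independent.

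**Figure D4:**
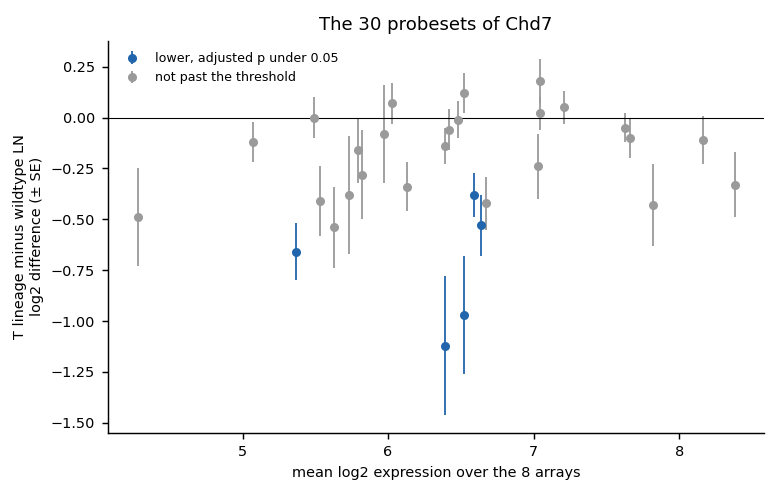
Log2 difference of T lineage minus wildtype lineage-negative cells (± SE) for each of the 30 probesets of Chd7 against the probeset's mean log2 expression over the 8 arrays. The 5 called probesets (blue) lie at mean levels between 5.37 and 6.64, and the brightest probeset, at -0.33, is not among them.

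Between deficient and wildtype lineage-negative cells 0 of the 52 genes passed with limma, where 0.00502% of all tested genes passed. The 1 gene that passed was Il2ra (CD25), lower in deficient cells (-1.02, limma adjusted p = 0.0283), where both groups were sorted as CD25-. With the arrays centred on their medians, or after a second quantile normalization, 0 probesets passed. At an unadjusted p under 0.05 there were 2 of 52, Hdac9 and Tet3, where 4.9% of all genes reached it. The median difference of the 52 genes was -0.01, as over all genes. Arrays of the groups did not overlap for 1 gene that was higher in deficient cells (4.01% of all genes) and 4 that were lower (6% of all genes).

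Hdac9 had the smallest p of them. Its 3 deficient arrays (8.80, 8.51 and 8.69) lay below its 3 wildtype arrays (9.13, 9.18 and 9.18), a difference of -0.50 (SE 0.10, 95% interval -0.72 to -0.27). It did not pass (limma adjusted p = 0.365), and over the alternatives the difference was -0.56 to -0.42 and the adjusted p 0.153 to 1. Tet3 was lower in all 3 deficient arrays by a difference of -0.24 (SE 0.09, limma adjusted p = 0.941). On its second, dimmer probeset the arrays overlapped, with a difference of -0.09. Bmi1 was higher in all 3 by 0.16 (SE 0.08, limma adjusted p = 0.999). Tet2 differed by -0.16, Dnmt3b by 0.08, Kat2a by 0.03, Smarca2 by -0.07 and Ezh2 by -0.01, each with an adjusted p of 0.999.

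Against deficient lineage-negative cells, T lineage cells had 4 of the 52 genes higher (6.01% of all genes) and 8 lower (8.28% of all genes), 23.1% in all against 14.3%. The rises numbered 7 after the second quantile normalization and 2 without T lineage array 2. Over all probesets 1302 rose in the main fit and 1714 after that normalization, and the count without that array is not given here. As above, the shares were not matched for expression level. This comparison shares its T lineage arrays with the one against wildtype, so the values stand side by side and are no second test. The differences from deficient and from wildtype cells were 1.31 and 1.39 for Dnmt3b, 0.63 and 0.53 for Dnmt3a, 0.65 and 0.81 for Uhrf1 and 0.91 and 0.95 for Kat2a. They were -1.90 and -2.00 for Tet1, -1.49 and -1.65 for Tet2, -0.71 and -0.78 for Smarca2 and -0.49 and -0.48 for Setd2. The Hdac9 difference was -1.21 against deficient and -1.71 against wildtype cells, and that of Tet3 was -0.28, not called (limma adjusted p = 0.101), against -0.52.

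Hdac5 (-0.36), Ep300 (-0.36) and Arid1b (-0.40) completed the genes that fell against deficient cells. Several of these calls depended on single arrays. Uhrf1 was not called under 5 of 17 alternatives, among them without deficient array 1 (0.0786) or 2 (0.0536) or T lineage array 1 (0.0665) or 2 (0.129). Dnmt3a was not called without T lineage array 2 (0.0501), nor Hdac5 without deficient array 3 (0.0514) or T lineage array 1 (0.106). Ep300 was not called without T lineage array 2 (0.0864). Arid1b was not called under 3 of 17 alternatives, among them without T lineage array 1 (0.0681) or 2 (0.0934).

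A wider list of 142 other chromatin genes, 134 of them measured, placed these enzymes among their partners. It too was chosen with earlier results of these data known, and its shares were not matched for expression level. In T lineage against wildtype lineage-negative cells 18 rose and 12 fell, 22.4% in all against 18.2% of all genes, with a median of 0.02. These counts were 7 and 4 without T lineage array 2, 9 and 8 without T lineage array 1, 9 and 11 without wildtype array 2, and 11 and 6 without wildtype array 1 or 3. Counts over all genes without these arrays are not given here. The largest rises were of Mta1, a NuRD subunit (0.66, limma adjusted p = 0.00639), Pcgf6, which defines a variant Polycomb complex (0.60, 0.00157), Prmt1, the main arginine methyltransferase (0.53, 0.00771), and Dpf3, a SWI/SNF reader subunit (0.48, 0.00834). The largest falls were of Kat6b, an acetyltransferase (-0.56, 0.0039), Jmjd1c, of the demethylase family (-0.43, 0.00491), Kmt2c, an H3K4 methyltransferase (-0.41, 0.0031), and Kat2b (PCAF), the paralogue of Kat2a (-0.41, 0.022).

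Of these named genes Pcgf6, Kat6b and Kmt2c kept the call under all 17 alternatives at this threshold. Jmjd1c was at -0.12 (limma adjusted p = 0.41) with its 2 probesets averaged and lost the call without T lineage array 2 (0.0598). Kat2b lost it under 5 of the 17 alternatives, among them without wildtype array 1 (0.0715) or 3 (0.055) or T lineage array 1 (0.167). Mta1 lost it without T lineage array 1 (0.052), and Prmt1 (0.0835) and Dpf3 (0.0673) without T lineage array 2. By family, where 7.74% of all genes rose and 10.5% fell, 5 of 13 demethylases outside the 53 genes fell and 0 rose, with a median of -0.21. Of 20 Polycomb genes outside them 5 rose and 0 fell, with a median of 0.02. Of 20 genes of deacetylase complexes 3 rose and 0 fell. Without T lineage array 2 only 4 genes of the whole wider list fell, so the demethylase count did not hold there. Prmt1, which modifies proteins and not DNA, was listed with the DNA methylation readers and repair genes.

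**Figure D5:**
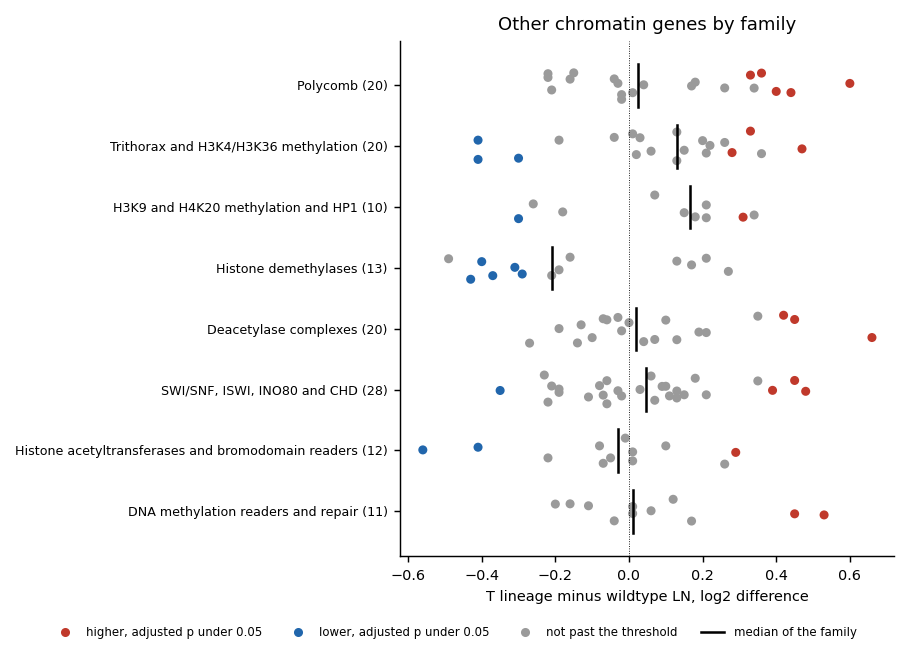
Log2 differences of T lineage minus wildtype lineage-negative cells for 134 other chromatin genes by family (points; the number of genes in brackets; vertical spread within a row is only for legibility), with the family median as a black line. Called genes are coloured, 18 higher and 12 lower, and all lie between -0.56 and 0.66. Both lists were chosen with earlier results known, so this span and the -2.00 to 1.39 of the 52 genes are not compared.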

How the data were processed

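The authors deposited log2 values per probeset, made with RMA in Partek 6.5 per the submitters' processing notes. Their range fits a log2 scale. RMA options and the annotation build were not given in the sources used here. The medians of the arrays were 6.85 to 6.91, r between arrays of a group was 0.995 to 0.997 over probesets, and 0 pairs of arrays were identical. The number of arrays limits the precision. Probesets with several genes (1621) or none listed (11989) were not used, which left 21789 of 35399.

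All 8 arrays were fitted together in R 4.3.3 with limma 3.58.1 (lmFit, eBayes, 3 groups, 5 residual degrees of freedom, two-sided, Benjamini-Hochberg over 21789 probesets). The fit was also run on simulated arrays of independent noise, with the same spread of a probeset in every group. The data do not always have that (SD of Tet1 0.75 in T lineage and 0.09 in wildtype lineage-negative cells). That run is therefore no check of the calls given here. Symbols follow RefSeq through the gene identifier, and the brightest probeset over all arrays stands for a gene. Genes given array by array were the 12 called members of largest difference between T lineage and wildtype cells, the 3 of smallest p between genotypes and a fixed panel. Values of Ep300 by array were added after they were seen. From the wider list the 4 largest called rises and falls were named. Members and lists were chosen with earlier results of these data known. In all 18 alternatives were run, 1 of them the stricter threshold of 0.01.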

Additional observations from a re-analysis of the deposited data

How the results depend on the processing

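Alternatives were run on 38 differences of single genes, 35 called and named in the text and those of Hdac9, Tet3 and Bmi1 between genotypes, and 0 of them changed direction. Other uncalled differences were not recomputed singly. Of the 35, 21 kept the call under all 17 alternatives at the threshold of 0.05 and 14 lost it under at least 1. Between the genotypes 0 of the 52 genes passed under each alternative. After a second quantile normalization the rises among the 52 genes numbered 13 against wildtype and 7 against deficient cells, beside 9 and 8 falls. The balance of rises and falls thus depends on scaling, also over all probesets. Against wildtype 1670 of all probesets rose and 2258 fell in the main fit. After that normalization 2233 rose and 2085 fell. Without the dimmest 40% of probesets 10 rose against wildtype. At a threshold of 0.01 the rises against wildtype were 3 and the falls against deficient cells 5. Leaving out 1 array gave 12 to 17 calls against wildtype (3 to 8 higher, 8 to 9 lower) and 8 to 12 against deficient cells (2 to 5 higher, 6 to 8 lower). The wider list had 16 calls, 8 of them higher, with all probesets in the fit, and 12 calls, 7 higher and 5 lower, at 0.01. Leaving out 1 array gave it 11 to 32 calls, 7 to 20 higher and 4 to 12 lower. With fewer arrays the fit has fewer degrees of freedom, and the cause of the other shifts was not tested. For the T lineage comparisons, counts over all genes or probesets are given only for the main fit and the second quantile normalization. Under the other settings a shift of these lists cannot be told from a shift of all genes. Replicate numbers were not taken to pair the samples. Deviations of same-numbered deficient and wildtype arrays correlated at -0.13, 0.02 and 0.04, those of deficient and T lineage arrays at -0.14 and -0.25 and those of wildtype and T lineage arrays at 0.16 and 0.12. With the replicate block 15 of the 52 genes passed against wildtype and 11 against deficient cells, without Hdac7 (0.0847) in the former and Hdac5 (0.0506) in the latter, and Kat2b (0.0533) of the wider list did not pass.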
